A study of Mus musculus with 1 sample.

Results

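The Flt3+ Dntt- gate held the bone marrow progenitors with transcripts of Flt3 and Cd34 in which no Dntt transcript was counted. A cell was a member when it had 1 or more unique molecular identifiers (UMIs, each standing for 1 captured transcript) of Flt3 and of Cd34 and 0 UMIs of Dntt, Irf8, Csf1r, Ly6d, Ebf1 and Ms4a3. In 1 single-cell RNA-seq library, 128 of 7645 filtered cells met this rule, chosen by their measured UMIs of these 8 genes, a share of 1.67% (exact 95% interval 1.40 to 1.99%). Because the rule read the same counts, every value below describes the chosen cells, and with 1 library no difference was tested.

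The study addressed how the loss of Brd9, a bromodomain subunit of the non-canonical BAF chromatin remodelling complex, alters the fate of hematopoietic stem cells. The library described here was its control, made from lineage-negative cKit+ cells sorted from the femora and tibiae of C57BL/6 mice whose donor genotype was CD45.2(+) Brd9fl/fl. The sample labels name CD45.1(+) CD45.2(-) recipients with treatment 4 weeks after bone marrow transplantation, whereas the series text names primary mice treated 4 weeks after birth, and which of these applied was not settled from the sources used here. In both accounts the mice received 3 injections of pIpC, an interferon-inducing double-stranded RNA, at 20 mg/kg every other day, and cells were prepared 8 weeks later. The control carries both floxed alleles and no Cre is named for it. The Brd9-deleted library was not analysed here, and the number of mice pooled was not given in the sources used here.

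Multipotent progenitors arise from stem cells, have lost long-term self-renewal and can still give rise to several blood lineages. Flt3, the receptor for Flt3 ligand, appears as stem cells pass into this compartment and is highest in progenitors primed for the lymphoid lineage, while Cd34 is a sialomucin shared by stem and progenitor cells. Dntt encodes terminal deoxynucleotidyl transferase, which adds bases at V(D)J junctions and marks the earliest lymphoid-primed cells. Irf8 is a transcription factor of monocytes and dendritic cells, Csf1r is the M-CSF receptor, Ms4a3 marks granulocyte-monocyte progenitors, Ly6d marks lymphoid progenitors that lean to the B lineage, and Ebf1 is a B-cell transcription factor.

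The promoters of 3 genes that carry the description are shown to give the sequence around their starts: Flt3, the gene of the rule, and Adgrl4 and Hlf, the leading genes by fold outside the rule. Each is the RefSeq window of 300 bases on GRCm38.p6 that ends 50 bases inside the transcript, written 5′ to 3′ on the gene's strand, with capitals marking matches to any of 4 motifs searched on both strands. For the ETS family of factors, to which Erg and Fli1 belong, the letters searched were GGAAGT. For the RUNX family, with Runx1 as the member of blood stem cells, the search used TGTGGT. The GATA family, which includes Gata1 and Gata2, was searched by its usual core with the letters AGATAA. For MEIS homeobox proteins such as Meis1 the motif was TGACAG, and no match in the 3 windows overlapped another.
Flt3, chr5:147400440-147400739, minus strand: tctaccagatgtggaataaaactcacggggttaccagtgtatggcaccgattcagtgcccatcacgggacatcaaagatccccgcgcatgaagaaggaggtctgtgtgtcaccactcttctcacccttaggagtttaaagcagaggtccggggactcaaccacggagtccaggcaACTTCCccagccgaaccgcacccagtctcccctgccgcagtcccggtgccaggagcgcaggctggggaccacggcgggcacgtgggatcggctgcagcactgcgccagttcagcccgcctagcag
Adgrl4, chr3:151437632-151437931, plus strand: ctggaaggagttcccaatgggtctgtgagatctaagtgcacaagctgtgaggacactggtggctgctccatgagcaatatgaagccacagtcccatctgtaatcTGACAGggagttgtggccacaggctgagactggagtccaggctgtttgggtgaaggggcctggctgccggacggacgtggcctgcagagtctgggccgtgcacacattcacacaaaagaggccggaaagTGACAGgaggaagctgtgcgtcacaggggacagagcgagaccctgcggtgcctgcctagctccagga
Hlf, chr11:90390868-90391167, minus strand: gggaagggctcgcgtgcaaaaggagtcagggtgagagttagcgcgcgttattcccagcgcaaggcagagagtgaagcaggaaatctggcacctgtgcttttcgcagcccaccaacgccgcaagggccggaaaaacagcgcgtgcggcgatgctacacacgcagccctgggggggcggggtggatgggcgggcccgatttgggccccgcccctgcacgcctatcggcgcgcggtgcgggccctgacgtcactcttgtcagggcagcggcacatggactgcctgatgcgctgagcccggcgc
The Flt3 window had a G and C content of 61% and held 1 ETS match, on the opposite strand and 75 bases before the start. The Adgrl4 window (58.7%) held 2 MEIS matches on the gene's strand, 146 and 17 bases before the start, and the Hlf window (67.3%) held none of the 4 motifs. Of the 30 genes with the highest folds against the other cells, 23 matched a RefSeq entry, with 33 windows in all. An ETS match was in 24.2% of these windows, a RUNX match in 18.2%, a GATA match in 15.2% and a MEIS match in 18.2%, beside 23.8%, 16.8%, 11.2% and 19.2% of the 32851 windows of 27025 genes. At least 1 of the 4 motifs was in 51.5% and 53.6% of the windows, so the leading genes' promoters carried these letters about as often as promoters in general, and a match is a run of letters and not a shown binding site.

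The steps of the rule show which genes set the size of the gate. Of the 7645 filtered cells, 1587 had a Flt3 UMI and 1271 of these also had a Cd34 UMI. Among the 1271, Irf8 was counted in 960 cells (75.5%), Ms4a3 in 602 (47.4%), Csf1r in 548 (43.1%), Dntt in 324 (25.5%), Ly6d in 89 (7.002%) and Ebf1 in 16 (1.26%). Irf8 alone kept 115 cells out, Ms4a3 alone 82 and Dntt alone 68, whereas Csf1r and Ly6d alone each kept 1 cell out and Ebf1 none. With Dntt as the one gene required at 0, the gate held 947 cells, 12.4% of the library, so most Flt3+ Cd34+ Dntt- cells carried a myeloid transcript and lay outside the gate.

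**Figure D1:**
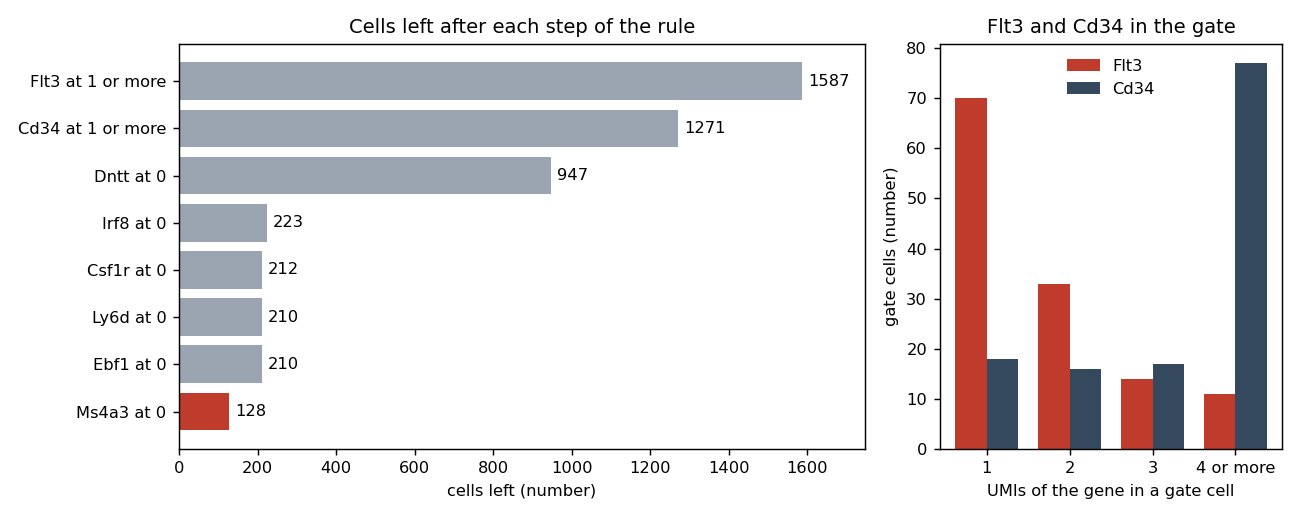
Number of cells (linear axis) left after each step of the rule, from the cells with a Flt3 UMI at the top to the final gate. A second panel gives the number of gate cells by their UMIs of Flt3 and of Cd34. The count passed from 1271 cells with Flt3 and Cd34 to 947 without Dntt, to 223 after Irf8 and to 128 after Ms4a3.

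Depth differed between the gates. Gate cells held a median of 11278.5 UMIs (range 4737 to 42512) and 3444.5 genes, against a median of 18846 UMIs in the other 7517 cells, and 1609965 UMIs were counted in the gate in all. Thinned to 5000 UMIs per cell, 127 gate cells had a median of 2069 genes and the other cells 1934. Flt3 was at 1 UMI in 70 gate cells, at 2 in 33, at 3 in 14 and at 4 or more in 11, and Cd34 was at 1 UMI in 18 cells with a median of 4. At these depths 0 UMIs of a gene does not show that a cell lacked its transcript. Scrublet called 1 of the 128 gate cells a doublet, and 268 of the 7645.

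Levels are given as UMIs per 1000000 UMIs of a gate (CPM) with exact Poisson 95% intervals, and ratios with exact conditional binomial intervals. Both cover counting error only. A gene is called higher or lower where its level, with 1 CPM added to both sides, differed at least 2-fold, among genes with 50 or more UMIs in both groups together. Gates of the same library served for comparison. The Dntt+ gate (68 cells) had 1 or more Dntt UMIs and otherwise met the rule, the myeloid-marked gate (794 cells) had Flt3, Cd34 and at least 1 UMI of Irf8, Csf1r or Ms4a3 but none of Dntt, Ly6d or Ebf1, and the stem gate (382 cells) had Procr and Hlf but no Flt3 and none of the 6 excluded genes. Their median depths were 11838.5, 22140 and 8282.5 UMIs.

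The 4 markers of the label were all present. Adgrl4, an adhesion receptor of stem cells, early progenitors and endothelium, stood at 596 CPM (559 to 635) in the gate, 589 in the Dntt+ gate, 491 in the stem gate, 93.3 in the myeloid-marked gate and 78.1 in the other cells, 7.63 times (7.14 to 8.15) their level. It was counted in 124 of 128 gate cells, and after thinning in 87.4% of gate cells, 2.22% of erythroid reference cells (3 or more UMIs of Klf1 and of Car1, 1172 cells) and 20.7% of neutrophil reference cells (3 or more UMIs of Cebpe, 811 cells), whose median depths before thinning were 33525.5 and 21524 UMIs. The gate, the Dntt+ gate and the stem gate thus lay close together for Adgrl4, with the myeloid-marked cells far below. Cd27, a TNF receptor family member of progenitors and lymphocytes, stood at 144 CPM in the gate, 172 in the Dntt+ gate, 89.3 in the stem gate and 70.3 in the myeloid-marked gate, and was counted after thinning in 52.8% of gate cells and 2.56% of erythroid reference cells. Flt3 itself was at 142 CPM in the gate and 262 in the Dntt+ gate, and Cd34 at 381 and 464, values that the rule helped to set.

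Stem and early progenitor genes led the gate against the other cells. In that comparison 13479 genes were compared, 1542 were higher (11.4%) and 720 lower (5.34%), and the median fold of all genes was 1.121. Of the 22 genes of the stem list, 15 were higher and 1, Slamf1, was lower, the list's median fold was 2.63, and its summed level was 2203 CPM in the gate and 690.1 in the other cells, a ratio of 3.19 (3.09 to 3.30). Hlf, a transcription factor of stem and multipotent cells, stood at 373 CPM against 41.6, a ratio of 8.98 (8.24 to 9.76), and was counted in 113 of 128 cells. Mecom, a zinc finger factor needed for stem cell maintenance, stood at 85.7 CPM against 14.5, a ratio of 5.92 (4.95 to 7.04). Meis1 and Hoxa9, partner homeobox factors, stood 4.23 (3.83 to 4.65) and 5.13 (4.37 to 5.998) times higher. Ly6a, which encodes Sca-1, was at 62.7 CPM against 12.1. Slamf1, which encodes the stem cell marker CD150, had 2 UMIs in 2 cells, 1.24 CPM against 6.24 in the other cells and 60.4 in the stem gate.

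Beyond the lists, the 30 genes with the highest folds held Ltb, a membrane-bound lymphotoxin (8.03, 6.62 to 9.66), Gcnt2, a glycosyltransferase (7.23, 6.45 to 8.08), and Gimap6 and Gimap1, GTPases of the immune-associated family (6.66 and 4.77). The RNA-binding regulator Msi2 was 4.78 times higher at 384 CPM, the regulator of G-protein signalling Rgs1 4.59 times at 473 CPM, the ETS factor Erg 4.23 times, and Calcrl, the receptor subunit for adrenomedullin, 5.13 times. The most abundant of the 30 was Ctla2a at 955 CPM, which shares near-identical sequence with Ctla2b, so reads of the pair may have been split between them. Of the 45 highest and lowest genes, 17 overlap another gene on the same strand, Ltb, Gcnt2, Hoxa9, Mecom, Meis1 and Msi2 among them, and reads in shared exons cannot be assigned with certainty. Ltb was counted after thinning in 31.5% of gate cells, 34.04% of stem gate cells and 20.9% of Dntt+ cells, and in 0.597% of erythroid reference cells. Its level thus marked the early gates together and not the Flt3+ Dntt- cells alone.

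**Figure D2:**
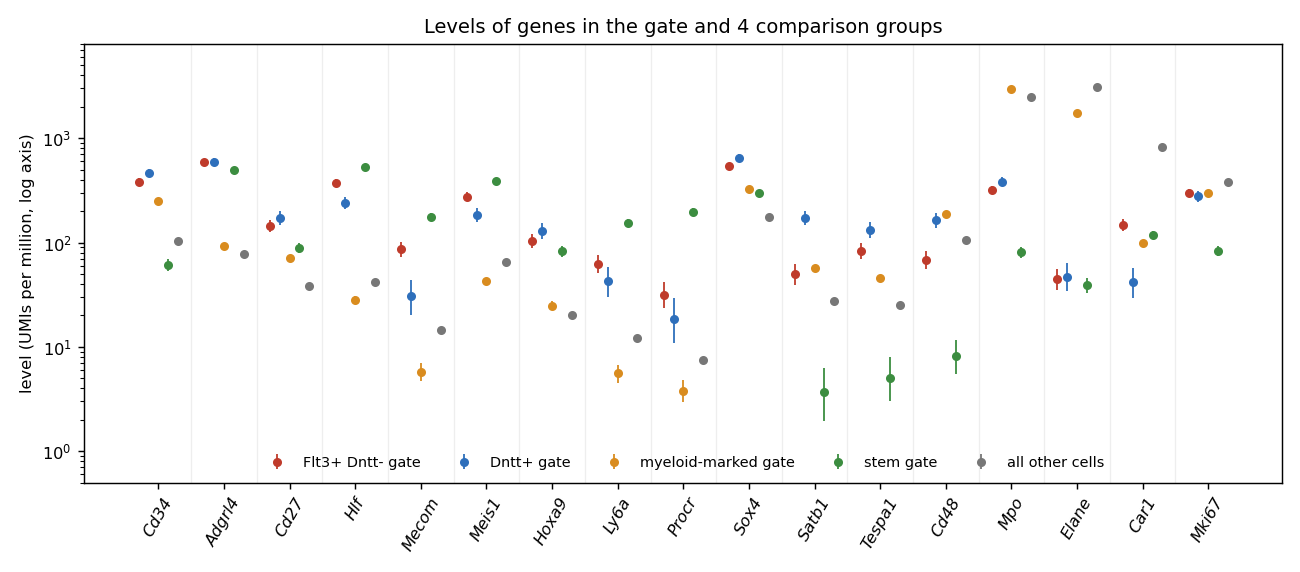
Level of leading, lymphoid-priming, granule and erythro-megakaryocytic genes (CPM, log axis) in the gate and the comparison gates of the library, with exact Poisson 95% intervals as bars. Adgrl4 sits near 596 CPM in the gate and 589 in the Dntt+ gate, and Elane at 44.7 CPM in the gate lies far below the 1760.4 of the myeloid-marked gate.

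Listed transcription factors were higher as a group than in the other cells. Of 34 listed factors, 17 were higher, 2 were lower (Mycl and Id1), and the summed level was 2.23 times (2.19 to 2.27) that of the other cells. Against the Dntt+ gate the sum was level at 0.994 times (0.966 to 1.02), with 2 of 29 factors higher and 1 lower. It was 2.24 times (2.20 to 2.285) that of the myeloid-marked gate and 0.748 times (0.7335 to 0.763) that of the stem gate. Sox4, which acts in early B and progenitor cells, stood at 539.8 CPM against 177, and Lmo2, a scaffold of hematopoietic factor complexes, at 749 against 339. The immediate early genes Egr1, Fos and Jun moved the same way, with Egr1 at 353 CPM against 101, Fos at 559.6 against 221 and Jun at 1619 against 603. The stem gate was higher still for all 3 at 783, 922 and 2256 CPM, and immediate early genes as a class were not compared.

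Among 25 cytokine receptors, 9 were higher and 8 lower than in the other cells. Kit, the stem cell factor receptor on which the cells were sorted, stood at 235 CPM against 86.5 and was counted in 113 of 128 cells. Il1r1, the interleukin-1 receptor, stood at 22.4 CPM against 4.15, a ratio of 5.38 (3.74 to 7.54), and Il18r1 at 14.3 against 2.40, a ratio of 5.95 (3.72 to 9.06). Il2rg, the common gamma chain, was 3.16 times higher (2.502 to 3.93) and Csf3r, the G-CSF receptor, 2.54 times (1.99 to 3.19). Among the lower receptors, Il7r, the interleukin-7 receptor, had 2 UMIs in the gate, Il6ra stood at 8.08 CPM against 25.9, and Csf2rb, the shared beta chain for interleukin-3 and GM-CSF, at 11.2 against 28.4.

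Lymphoid-priming genes were mixed. Of 20 listed genes, 4 were higher than in the other cells (Rag2, Lax1, Tespa1 and Wfdc17), 6 were lower (Ighm, Il7r, Rag1, Cd52, Jchain and Plac8), and the summed level was 0.494 times (0.476 to 0.513) theirs. Tespa1, a T-cell receptor signalling protein, stood at 82.6 CPM in the gate, 132 in the Dntt+ gate, 45.6 in the myeloid-marked gate and 5.06 in the stem gate. Satb1, a chromatin organizer of lymphoid progenitors, stood at 49.7, 171, 56.7 and 3.65 CPM in the same order. Both were therefore between the stem gate and the Dntt+ gate. After thinning Satb1 was counted in 16.5% of gate cells, 46.3% of Dntt+ cells, 1.85% of stem gate cells, 1.54% of erythroid and 9.93% of neutrophil reference cells. Ighm, the immunoglobulin mu chain, was counted in 9.45% of thinned gate cells and 47.8% of Dntt+ cells, beside 1.58% of stem gate cells, 4.52% of erythroid and 10.2% of neutrophil reference cells. The gate's share was thus above the erythroid reference and no higher than the neutrophil reference. The B-lineage list summed to 41.6 CPM in the gate and 42.2 in the other cells (0.986, 0.763 to 1.25), of which Cd79b, a signalling chain of the B-cell receptor, made up 34.8 and 29.6 CPM. Of 10 B-lineage genes compared, Rag2 at 3.11 CPM against 0.752 was higher, Rag1 and Vpreb3 were lower with no UMI, and 7 stayed under 2-fold. Pax5, Igll1, Vpreb2 and Pou2af1 also had no UMI, and 80 of 128 cells held none of the list.

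Neutrophil granule genes were low. Mpo, Elane, Prtn3 and Ctsg were all lower than in the other cells, with a summed level of 1092 CPM against 10776, a ratio of 0.101 (0.0967 to 0.106). Elane, neutrophil elastase, stood at 44.7 CPM (35.0 to 56.3) in the gate, 46.9 in the Dntt+ gate, 38.8 in the stem gate, 1760.4 in the myeloid-marked gate and 3080.1 in the other cells. Thinned, it was counted in 19.7% of gate cells and 23.3% of erythroid reference cells, so its share was no higher than in a cell type that should lack it. Among the 1172 erythroid reference cells, 107 held 1000 CPM or more of the granule list, and the source of these UMIs was not tested. Prtn3, proteinase 3, was counted in 89.0% of thinned gate cells, 95.8% of stem gate cells and 24.1% of erythroid reference cells. Mpo, myeloperoxidase, was counted in 45.7% of gate cells, 47.8% of Dntt+ cells, 24.5% of stem gate cells and 23.8% of erythroid reference cells. For each Elane UMI the gate held 11.6 Prtn3 UMIs (9.11 to 14.97), the Dntt+ gate 10.1, the stem gate 19.2, the myeloid-marked gate 1.70, and the erythroid and neutrophil references 1.08 and 0.795. Mpo UMIs per Elane UMI were 7.15 in the gate, 2.07 in the stem gate and 0.895 in the erythroid reference. The early gates thus differed from the references in the proportions of the granule transcripts.

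Other mature programs were low. Of 21 myeloid genes compared, 12 were lower and 1, Csf3r, was higher, and Ly86, which encodes MD-1, had 1 UMI in the gate (ratio 0.00712, 0.000180 to 0.0397). Fn1, Camp, Ngp and Ltf had no UMI. All 9 basophil, mast cell and eosinophil genes were lower (summed ratio 0.0472, 0.0388 to 0.0568), with Prss34 at 14.3 CPM against 669 and Prg2 at 2 UMIs. Of 13 dendritic genes 9 were lower and 1, Runx2, was higher, and Siglech, Xcr1, Cd209a and Spib had no UMI. Jchain, the joining chain of secreted antibodies, had no UMI and was at least 30.3 times lower, taking 3 UMIs over the gate as the floor.

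**Figure D3:**
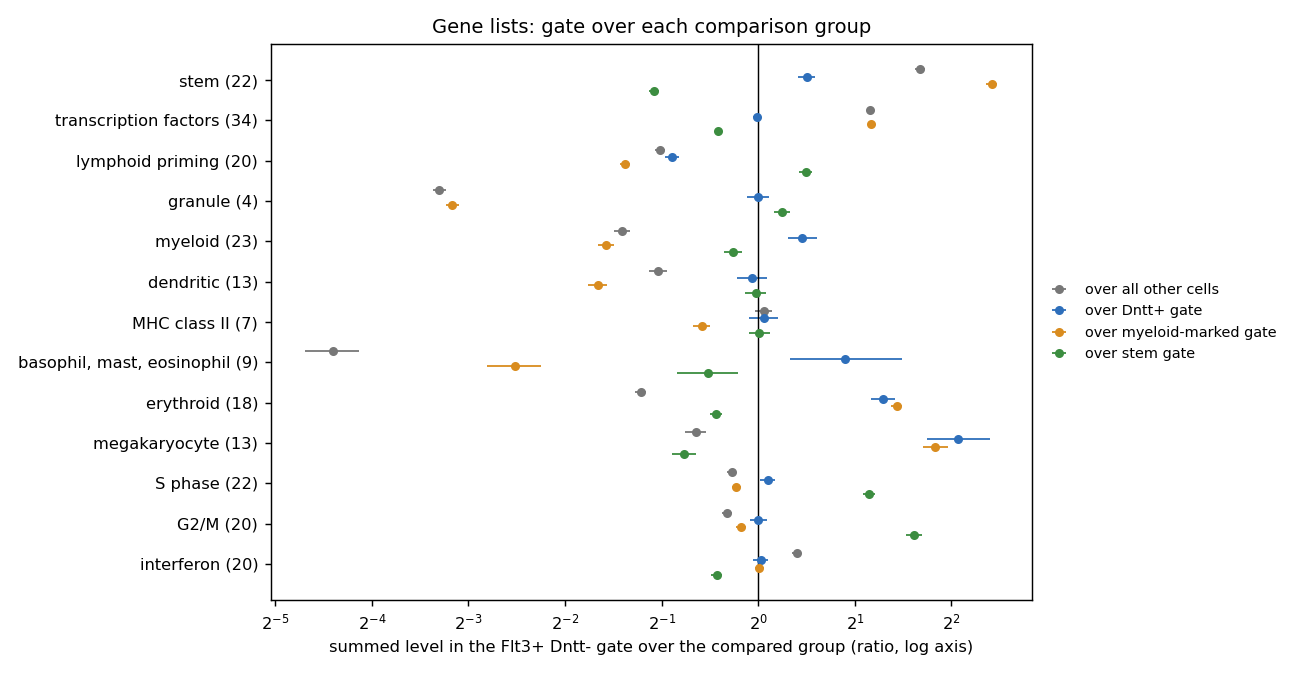
Summed level of each gene list in the gate divided by that in the other cells and in 3 comparison gates (ratio, log axis; 1 means equal), with exact conditional binomial 95% intervals as bars. The stem list is at 3.19 against the other cells, 5.34 against the myeloid-marked gate and 0.473 against the stem gate, and the granule list is at 0.101 against the other cells.

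Interferon response genes, of interest because pIpC induces interferon, were partly higher than in the other cells. Of 19 compared, 10 were higher and none was lower than in the other cells, and the summed ratio was 1.32 (1.28 to 1.36), while against the stem gate it was 0.742 (0.714 to 0.770). The sum was level with the Dntt+ gate (1.02, 0.964 to 1.07), where 0 of 14 genes were higher and 1 lower. Against the myeloid-marked gate it was 1.01 (0.976 to 1.04), with 7 of 17 higher and 0 lower. A higher sum was thus not particular to the gate. Oasl2 stood at 29.2 CPM against 4.31 in the other cells and 36.8 in the stem gate. Rtp4 stood at 33.5 against 5.76 and 61.8. Ifitm3, the most abundant of the list, stood at 614 against 303 and 1388. The gate was between the stem gate and the rest of the library for Ifitm3 and Rtp4, and the 10 genes that were higher did not include Bst2 or Ly6e, both abundant and under 2-fold.

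Brd9 stood at 31.7 CPM in the gate, 32.7 in the Dntt+ gate, 33.2 in the myeloid-marked gate, 29.8 in the stem gate and 30.3 in the other cells, a ratio to the last of 1.05 (0.778 to 1.38). Of 23 genes of the BAF complexes and of CTCF and cohesin, 2 were higher, Smarcd1 (2.06, 1.67 to 2.52) and Arid1b (2.06, 1.75 to 2.39), and none was lower. Of all genes compared with the other cells 11.4% were higher and 5.34% lower, so the list was called no more often than genes in general. Its median fold was 1.18, beside 1.12 for all genes. Ctcf, the insulator-binding protein, stood at 195 CPM against 161, a ratio of 1.21 (1.08 to 1.36). Against the Dntt+ and the myeloid-marked gates no gene of the list was called higher or lower, and against the stem gate Bicra was the one gene called, at 7.45 CPM against 17.4.

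The Dntt+ gate answers what the absence of Dntt goes with when the rest of the rule is held. Of 6365 genes compared, 111 were higher in the gate without Dntt (1.74%) and 41 lower (0.644%), and the median fold was 1.03. Lymphoid-priming genes were lower: 5 of 13 (Satb1, Notch1, Ighm, Plac8 and Wfdc17) and none higher, with a summed level of 1769.6 CPM against 3292 and a ratio of 0.538 (0.511 to 0.566). Ighm stood at 25.5 CPM against 218, a ratio of 0.117 (0.0813 to 0.164), Wfdc17 at 29.2 against 124 (0.235, 0.163 to 0.332) and Satb1 at 49.7 against 171 (0.290, 0.219 to 0.382). The chemokines Ccl3 and Ccl4 stood 0.222 (0.177 to 0.277) and 0.320 (0.267 to 0.381) times their Dntt+ levels, and the activation marker Cd69 0.309 times (0.266 to 0.358). Of 16 surface and adhesion genes compared, Cd48 and Cd53 were lower, Cd9 was higher and 13 stayed under 2-fold (summed ratio 0.815, 0.773 to 0.860). Cd48 stood at 68.3 CPM against 164, and the interleukin-1 receptor Il1r1 at 22.4 against 49.1. Granule genes summed to the same level in both gates, with a ratio of 1.0 (0.925 to 1.08), as did class II antigen presentation genes (1.04, 0.938 to 1.15).

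Stem genes were higher without Dntt, 6 of 14 compared (Mecom, Mllt3, Pdzk1ip1, Esam and Gata2 among them), with a summed ratio of 1.42 (1.33 to 1.51). Mecom stood at 85.7 CPM against 30.6, a ratio of 2.81 (1.86 to 4.38), and Gata2, a factor of stem cells and of the erythroid, megakaryocyte and mast lineages, at 137 against 52.4 (2.62, 1.91 to 3.66). Hlf at 373 against 240.1 stayed under 2-fold (1.55, 1.33 to 1.82), and Hoxa9 (0.799, 0.627 to 1.02) and Adgrl4 (1.01, 0.909 to 1.12) had ratios near 1. Erythroid genes were higher, 11 of 13 compared (2.44, 2.24 to 2.66), as were all 5 megakaryocyte genes compared (4.18, 3.36 to 5.26), with Pf4, platelet factor 4, at 151 CPM against 15.3 and Sox6 at 51.6 against 6.55.

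A few cells held much of the erythroid and megakaryocyte signal. One gate cell of 34200 UMIs held 569 of the gate's 2879 erythroid list UMIs (19.8%), with 99 of Car1, and no UMI of Hlf, Adgrl4 or Cd27. Another held 115 of 676 megakaryocyte list UMIs (17.0%), with 93 of Pf4, and the third held 211 of 1758 granule list UMIs (12.0%), with 87 of Mpo. None of the 3 was a doublet call. Without them the erythroid list was 2.02 times (1.85 to 2.20) its Dntt+ level and the megakaryocyte list 3.60 times (2.88 to 4.53). Of the genes that still reached the UMI limit, 5 of 8 and 4 of 4 were higher, counts that the limit again helped to set. Without them Car1 stood at 89.4 CPM in place of 147, with a ratio of 2.16 (1.496 to 3.18) in place of 3.53, and Pf4 at 97.9 CPM in place of 151, with a ratio of 6.41 (3.70 to 12.0) in place of 9.88. Of the 137 Car1 UMIs left, 59 were in 1 further cell, and of the 150 Pf4 UMIs left, 39 were in 1 cell. Ratios without those further cells were not computed, so the Car1 ratio may still rest on 1 cell. Without the 3 cells Hba-a1, a globin gene with a near-identical copy, was at 1.03 times (0.559 to 1.96) its Dntt+ level, beside 2.21 with all 128 cells. Sox6 (7.68), Apoe (4.19), Aldh1a1 (5.68) and Gata2 (2.60) kept their ratios, so these did not rest on the 3 cells.

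Against the myeloid-marked gate, 1161 of 10479 genes were higher (11.1%) and 529 lower (5.05%), with a median fold of 1.123. Stem genes were higher in 15 of 16 compared, with a summed ratio of 5.34 (5.13 to 5.56). Ltb was 16.1 times higher (12.1 to 21.5), Mecom 14.96 times (11.5 to 19.5), Hlf 13.2 times (11.7 to 14.9) and Ly6a 11.3 times (8.47 to 15.01). Myeloid genes were lower in 14 of 19, dendritic genes in 7 of 9 and granule genes in 4 of 4, and the 3 genes that put cells in the myeloid-marked gate belong to those programs. F13a1, a monocyte transglutaminase, stood at 5.59 CPM against 391, and Mpeg1, a perforin-like protein of macrophages, had no UMI and was at least 41.7 times lower. Erythroid genes were higher in 11 of 18 with all cells and in 4 of 18 without the 3 cells above, and the summed ratio passed from 2.70 to 2.23.

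Against the stem gate, 304 of 8967 genes were higher (3.39%) and 511 lower (5.70%), with a median fold of 0.993. Stem genes were lower in 17 of 22, with a summed ratio of 0.473 (0.456 to 0.490), of which Procr and Hlf are set by the rule of the stem gate. Slamf1 stood at 0.0206 times its stem gate level (0.00248 to 0.0752), and Vwf, von Willebrand factor, at 14.3 CPM against 96.9 (0.147, 0.0922 to 0.225). The endothelial junction gene Cldn5 had 1 UMI in the gate against 74.4 CPM, and the adrenomedullin co-receptor Ramp2 had 1 UMI against 52.5 CPM. Hoxa9 (1.26, 1.04 to 1.53), Adgrl4 (1.21, 1.12 to 1.31) and Meis1 (0.716, 0.642 to 0.798) stayed under 2-fold, so the loss from the stem gate was uneven within the list.

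Several lymphoid-priming genes were higher than in the stem gate. Of 15 compared, 6 were higher and 1, Foxo1, lower, with a summed ratio of 1.41 (1.34 to 1.47). Of 16 surface and adhesion genes, 4 were higher (Cd48, Cd53 and Emb among them), 2 lower (Cd38 and Ly6a) and 10 under 2-fold (1.13, 1.09 to 1.18). Tespa1 was 16.3 times higher (9.95 to 28.4), Satb1 13.6 times (7.52 to 26.7), and Cd52, a small surface glycoprotein, 8.55 times (5.92 to 12.6). Cd48, the SLAM family marker absent from stem cells, stood at 68.3 CPM against 8.15, a ratio of 8.39 (5.53 to 13.1). Ccl9, Bex6 and Cd69 were 18.4, 18.5 and 11.5 times higher. Of the granule genes, Mpo at 319.9 CPM against 80.3 and Ctsg at 209 against 55.9 were higher, whereas Prtn3 was at 519 against 745 and Elane at 44.7 against 38.8.

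Cell cycle genes separated the gate from the stem gate more than from the other cells. Of 20 G2/M genes, 19 were higher than in the stem gate, with a summed ratio of 3.06 (2.90 to 3.23), and 15 of 22 S-phase genes were higher, with a ratio of 2.22 (2.12 to 2.31). The G2/M sum was 0.798 times that of the other cells, and 0.685 times without the 3 gate cells described above. Its ratio to the stem gate without them was not computed. Mki67, the proliferation marker, stood at 299 CPM in the gate, 278 in the Dntt+ gate, 83.4 in the stem gate and 383 in the other cells. G2/M genes reached 1000 CPM or more in 37 gate cells, and after thinning in 29.1% (21.4 to 37.9) of gate cells, 29.9% (19.3 to 42.3) of Dntt+ cells, 58.7% of myeloid-marked cells and 4.49% (2.63 to 7.09) of stem gate cells. In 7 gate cells the G2/M level lay near that limit. Cdk6, a kinase that governs exit from quiescence, stood at 554 CPM against 251 in the stem gate, and Cdkn1c, a quiescence-associated inhibitor, at 13.7 against 71.6.

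Within the gate the lists spread unevenly over cells. The stem list had a median of 2379 CPM per cell with a range of 439 to 5854, beside a median of 4946 in the stem gate, 1459 in the Dntt+ gate, 188 in the myeloid-marked gate and 239 in the other cells. The lymphoid-priming list had a median of 1600.0 CPM, beside 3097 in the Dntt+ gate and 1166 in the stem gate. In sum this list stood at 1769.6 CPM in the gate, 4601 in the myeloid-marked gate and 3579 in the other cells. Its ratio to the myeloid-marked gate was 0.385 (0.370 to 0.399), with 2 of 15 genes higher and 4 lower, so its level was not particular to lymphoid-primed cells. Class II antigen presentation genes had a median of 474 CPM and reached 1000 CPM or more in 26 cells (20.3%, 13.7 to 28.3), and H2-Aa was counted in 33.1% of thinned gate cells against 2.05% of erythroid reference cells. The megakaryocyte list had a median of 215 CPM with 22 cells at 0 and 6 cells at 1000 CPM or more. The stem list was thus counted in every gate cell and the megakaryocyte list in most, with levels of 1000 CPM or more of the latter in few.

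**Figure D4:**
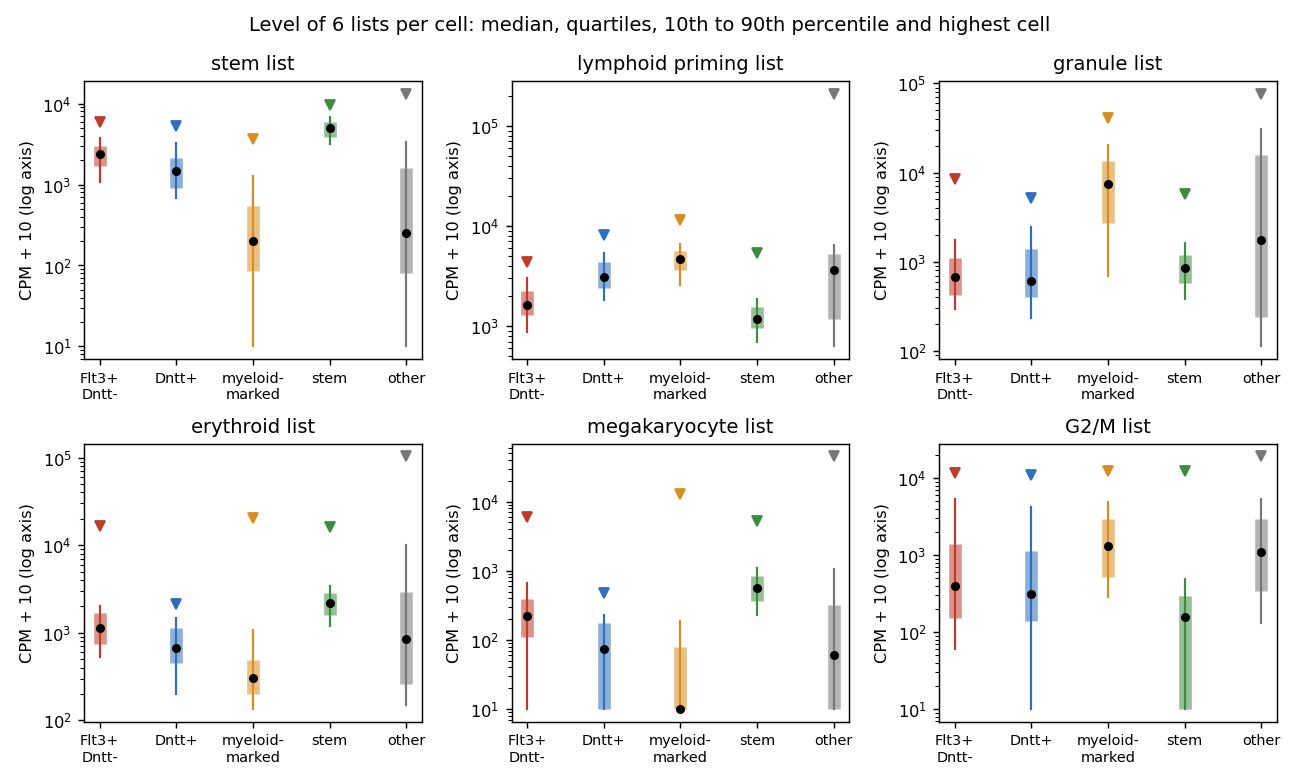
Level of each list per cell (CPM) in the cells of the gate and of the comparison gates, with medians marked. The median of the stem list is 2379 CPM in the gate, 4946 in the stem gate and 188 in the myeloid-marked gate.

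Transcripts of several lineages were counted in the same cells. In 127 cells thinned to 5000 UMIs, at least 1 UMI of a granule gene (Mpo, Elane, Prtn3 or Ctsg) was in 121 (95.3%), of a lymphoid gene (Satb1, Tespa1, Notch1, Ighm or Wfdc17) in 65 (51.2%), and of a megakaryocyte-erythroid gene (Pf4, Itga2b, Car1, Klf1 or Gata1) in 63 (49.6%). All 3 sets were met in 26 cells, 20.5% (13.8 to 28.5), beside 14.9% of Dntt+ cells, 20.5% of myeloid-marked cells and 8.18% of stem gate cells. The erythroid reference had 5.46% and the neutrophil reference 9.18% (7.28 to 11.4). The granule set rested on Prtn3: without it the set was met in 61.4% of gate cells and 43.1% of erythroid reference cells, and all 3 sets in 13.4% (7.995 to 20.6) and 5.21%, beside 19.8% (17.1 to 22.7) of myeloid-marked cells. The neutrophil reference stayed at 9.18% without Prtn3, inside the interval of the gate. The lymphoid set separated the gate from the stem gate, where 16.1% of cells met it. It was also met in 75.6% of myeloid-marked and 30.65% of neutrophil reference cells, so it was not particular to lymphoid-primed cells. The megakaryocyte-erythroid set separated the gate from the Dntt+ gate, where 23.9% met it, beside 29.1% of myeloid-marked, 60.4% of stem gate and 25.8% of neutrophil reference cells. For all 3 sets together, the gate and the myeloid-marked gate had equal shares with Prtn3 counted, and the gate the lower share without it, with overlapping intervals.

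**Figure D5:**
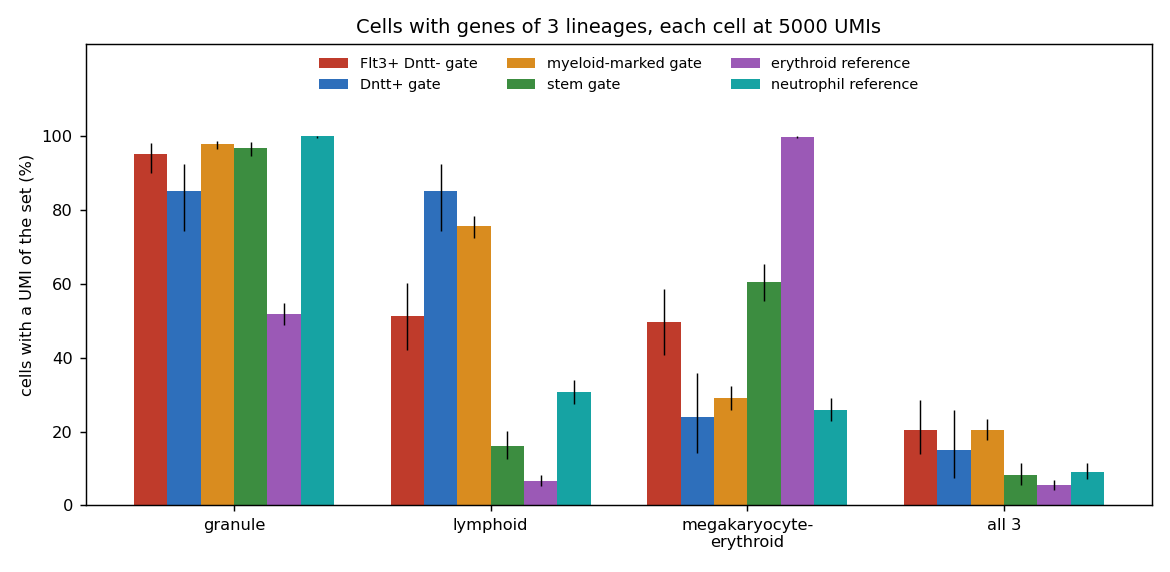
Share of cells (percent, after thinning to 5000 UMIs per cell) with at least 1 UMI of the granule, lymphoid and megakaryocyte-erythroid sets and of all 3, in the gate, the comparison gates and the reference cells, with exact binomial 95% intervals as bars. All 3 sets were met in 20.5% of gate cells, 5.46% of erythroid reference cells and 9.18% of neutrophil reference cells.

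Flt3 level divided the gate. The 70 cells with 1 Flt3 UMI and the 58 with 2 or more had nearly equal median depths of 11287 and 11038 UMIs. The lymphoid-priming list had a median of 1916 CPM per cell with 2 or more and 1467 with 1. Genes with a larger difference, chosen after their values were seen, were Satb1, Ighm and the receptor gene Il1r1. In cells with 2 or more, Satb1 stood at 74.2 CPM (55.8 to 96.9) against 29.5 (19.2 to 43.2), Ighm at 46.7 (32.4 to 65.3) against 7.93 (3.19 to 16.3), and Il1r1 at 39.9 (26.7 to 57.3) against 7.93 (3.19 to 16.3). Cells with 1 UMI held more of Gata2, at 186 CPM (159 to 217) against 78.4 (59.4 to 102), and held all 23 Vwf UMIs of the gate. Hlf was at 375 and 371 CPM and Adgrl4 at 539 and 664. Pf4 stood at 256 against 23.4 CPM, of which 93 UMIs were in 1 cell, and Car1 at 47.6 against 267, of which 99 UMIs were in 1 cell. Without the 3 cells named above, Pf4 stood at 159 against 24.5 CPM and Car1 at 50.1 against 137. Of the 95 Car1 UMIs then left in the cells with 2 or more Flt3 UMIs, 59 were in 1 cell.

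Cells just outside the rule were as follows. In 626 cells with Cd34 but 0 Flt3 UMIs that met the rest, Adgrl4 stood at 243 CPM, Hlf at 168, Cd27 at 71.6, Mpo at 176, Car1 at 523 and Pf4 at 1770.3. In 41 cells with Flt3 but 0 Cd34 UMIs, Adgrl4 stood at 231, Hlf at 216 and Car1 at 1486. With exactly 1 Dntt UMI (23 cells), Adgrl4 stood at 568, Hlf at 336 and Satb1 at 98.1, values between those of the gate and of the Dntt+ gate for Hlf and Satb1. With exactly 1 Irf8 UMI (25 cells), Hlf stood at 201 and Mpo at 920.1, and with exactly 1 Ms4a3 UMI (32 cells), Hlf stood at 134, Mpo at 1321 and Elane at 163. Just inside, the 18 cells with 1 Cd34 UMI stood at 420.3 CPM of Adgrl4, 732 of Pf4 and 9.45 of Cd48, against 622, 62.9 and 77.2 in the 110 cells with more. These 18 include the cells highest in the erythroid and megakaryocyte lists, and 93 of their 155 Pf4 UMIs were in 1 of them. In the 16 cells without both, Adgrl4 stood at 556 CPM, Pf4 at 392 and Cd48 at 12.6.

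Several lymphoid and class II genes were lower in the cells without a Flt3 UMI. Of 10157 genes compared, 197 were higher in the gate (1.94%) and 316 lower (3.11%). Lymphoid-priming genes were higher in the gate in 8 of 15, with the list at 1.27 times (1.21 to 1.32) the level of the Flt3-free cells, and class II genes in 4 of 6, with the list at 1.98 times (1.85 to 2.13). Megakaryocyte genes were lower in 10 of 12 (0.163, 0.151 to 0.176) and erythroid genes in 12 of 18 (0.459, 0.441 to 0.476). The stem list had a ratio of 1.02 (0.987 to 1.06), and S-phase (0.9496, 0.919 to 0.982) and G2/M genes (0.917, 0.883 to 0.953) had none past 2-fold. Of these lists, the megakaryocyte and erythroid lists alone differed 2-fold in sum.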

How the data were processed

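Single-cell RNA-seq had been made by the authors from sorted lineage-negative cKit+ cells with the 10x Genomics Single Cell 3′ v3.1 kit, which captures transcript ends with UMIs, whereas the extraction text of the labels describes a bulk kit. According to the labels and the methods, Cell Ranger 6.0.2 and the mm10 reference gave the deposited matrix of raw UMI counts, 32285 genes by 8817 barcodes, each barcode with 502 or more UMIs.

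The limits of the study's methods (UMIs above 1000 and below 50000, genes above 1000 and below 6500, mitochondrial UMIs below 7%) left 7645 cells of 1 library. Gates read the raw counts. UMIs were summed per gate and divided by the gate's total to give CPM, and 95% intervals were exact (Poisson for levels, conditional binomial for ratios, Clopper-Pearson for shares of cells). These cover counting error only. Since 1 library has no replicates, no test was run and no p-value is given. Shares of cells across depths were read after each cell was thinned once to 5000 UMIs without replacement, leaving out shallower cells. Scrublet (scanpy 1.11.5, expected rate 6%) marked likely doublets, which stayed in the gate and were removed in an alternative only. Gene positions are from GENCODE on GRCm38 and promoter windows from RefSeq on GRCm38.p6, and all 376 named genes were found in the annotation. Python 3.11.15, numpy 2.4.6, scipy 1.17.1, pandas 2.3.3 and matplotlib 3.10.9 were used, and the scripts were tested on simulated data.

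The members of the gate and the 20 gene lists (311 genes) were chosen with earlier results of these data known, and none of them is independent support. Genes named were members of the lists, the 30 with the highest and 15 with the lowest folds against the other cells, and the 10 highest and 10 lowest against each comparison gate, at 50 CPM or more on the higher side, with the genes of the rule left out. A few genes that fall under it are not reported here. Alternatives changed the UMIs required of Flt3 and Cd34, the genes required at 0, the cell filter, doublets, thinning, the genes counted in the total, the weight of cells, the gene minimum and the CPM added. Leaving out 3 gate cells was added after seeing the data.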

Additional observations from a re-analysis of the deposited data

Results flagged for a closer look

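Outside the cell filter, 7 of 1172 barcodes met the gene rule of the gate, a share of 0.597% (exact 95% interval 0.241 to 1.23%), above the 0.256% that 3 barcodes would give. They were looked at because no comparison above uses them. Their median was 6248 UMIs with a mitochondrial share of 11.1%, and 6 of the 7 were above the mitochondrial limit, 2 under the gene minimum and 1 above an upper limit. Adgrl4 stood at 638.8 CPM (471 to 847) in them, Cd27 at 79.9 (29.3 to 174) and Hlf at 253 (152 to 395), so the leading genes of the gate were at levels near or below those of the 128 filtered cells.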

How the results depend on the processing

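Of 66 genes, 65 or 66 kept their side of 1 under each setting that gave gene ratios, except 49 with Dntt alone at 0. Ratios and the share counted as kept inside their counting interval, and the numbers of higher and lower genes within a set factor. Of 89 results, 86 were kept with doublet calls removed, 87 of 88 with mitochondrial, ribosomal and haemoglobin UMIs left out, and 78 of 89 without the 3 gate cells. Without those cells the granule ratio was 0.0927, erythroid 0.355 and G2/M 0.685. The kept results were 37 of 89 with the gate read after thinning, 34 of 88 with cells weighted equally and 57 of 89 with 2 or more Flt3 UMIs. The megakaryocyte ratio of 0.639 passed to 0.236 after thinning and 0.268 with 2 or more Flt3 UMIs. Against the other cells the reported values were a share of 1.67%, 1542 genes higher and 720 lower, and summed ratios of 3.19 (stem), 0.494 (lymphoid) and 0.101 (granule). Adding 0 CPM gave 1372 genes lower, and adding 5 CPM gave 572 higher and 307 lower. With 2 or more Flt3 UMIs the share was 0.759%, with stem 2.88, lymphoid 0.571 and granule 0.0920. With 2 or more Cd34 UMIs lymphoid was 0.513 and granule 0.110. Keeping cells of 5000 or more UMIs with mitochondrial UMIs below 5%, the share was 1.37%, lymphoid 0.472 and granule 0.0950. With no cell filter lymphoid was 0.524 and granule 0.115. Each cell weighted equally gave stem 2.25. The gate read after thinning held 1.35% of cells, with stem 2.37, lymphoid 0.743 and granule 0.226. Requiring 6 further genes at 0 left 1 cell (0.0131%), so nothing else was computed.

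With Dntt as the one gene at 0, the gate held 12.4% of cells, 137 genes were higher and granule stood at 0.820. There the stem list (0.762), lymphoid list (1.29), myeloid list (1.07) and dendritic list (1.60) reversed, as did Mecom 0.776, Meis1 0.885, Procr 0.743, Ly6a 0.794, Myct1 0.965, Rgs1 0.877, Pglyrp2 0.968, Osbpl1a 0.940, Gimap1 0.889, Ctla2b 0.935 and Il18r1 0.818, and on the other side Mpo 1.13, F13a1 2.32, Ly86 2.34, Slpi 1.34 and Anxa3 1.17. The low myeloid and high stem values thus belong to the rule with all 6 genes at 0, and 724 of the 947 cells carry Irf8.

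No paired analysis was possible because 1 library was analysed with no replicate to leave out. The depth limits what a 0 means: 3 UMIs over the gate are 1.86 CPM.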

Other observations

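T-lineage transcripts sat in 1 gate cell, named here after its values were seen. It held 4 UMIs of Cd3e, 6 of Cd3g and 3 of Cd3d, which were all that the gate had of these T-cell receptor complex genes, together with 10 UMIs of Adgrl4, 2 of Hlf and 2 of Flt3. It was not a doublet call. Over the whole gate, 7 genes of the T, natural killer and innate lymphoid list were compared with the other cells. Of these 2 were higher and 3 lower, and the list sum was 0.930 times (0.851 to 1.01) theirs. Zbtb16, the PLZF factor of innate-like lymphocytes and early progenitors, stood at 18.01 CPM against 7.39 in the other cells (2.44, 1.62 to 3.52) and 2.18 in the Dntt+ gate, and Gata3 at 13.7 against 5.19 (2.63, 1.64 to 4.01) and 50 in the stem gate. Tcf7, Trbc1 and Klrd1 had no UMI in the gate.

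The cell with the highest class II level held 24 UMIs of Cd74 in 7489 and also 6 of Hlf and 4 of Adgrl4. Cpa3, a mast cell carboxypeptidase also found in early progenitors, stood at 37.3 CPM in the gate and 6.55 in the Dntt+ gate (5.69, 2.47 to 16.1), and was at the same ratio without the 3 cells described above.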
